A study of Mus musculus with 8 samples.

Results

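The genes Foxn1, Trp63, Pax1, Pax9, Six4, Eya1 and Tbx1 were examined by their accessible chromatin in mouse medullary thymic epithelial cells (mTECs). Eya1 encodes a transcriptional co-activator and the others transcription factors, which act in thymic epithelium or in the embryonic pouch that forms it. A region was assigned to a gene when it overlapped the gene body of the GENCODE M21 annotation (mm10) or the 50 kb on either side. By this rule 59 of the 57124 accessible regions lay near the 7 genes, which are 7 of 21938 protein-coding genes, and no region was assigned to more than 1 of them. All 7 genes had an accessible promoter, whereas the number, width and base composition of their regions differed between genes.

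The regions came from ATAC-seq, where a transposase (Tn5) tags DNA that nucleosomes leave free. The cells were mTECs of wild-type mice a few weeks old, isolated from the thymus by FACS after removal of CD45-positive cells. They were gated on the epithelial protein Epcam and against the cortical marker CDR1, and separated by the surface proteins Tspan8 and MHCII. Tspan8 is a tetraspanin that mTECs express as a tissue-restricted self-antigen. MHCII rises as mTECs mature and, per the paper, falls again in late mTECs, so MHCIIlow cells include immature and late stages. There were 8 samples in 4 groups, Tspan8neg MHCIIlow, Tspan8neg MHCIIhigh, Tspan8pos MHCIIlow and Tspan8pos MHCIIhigh, with 2 biological replicates each. The regions are a single consensus set made from peaks of the whole experiment and the 8 count columns carry names that match no sample, so the values below describe the mTECs of all groups jointly, with no group comparison and no replicate error.

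Thymic epithelium arises from the endoderm of the third pharyngeal pouch, where Tbx1, Pax1, Pax9, Eya1 and Six4 pattern the pouch and the early organ rudiment. Foxn1, the forkhead factor mutated in nude mice, then drives differentiation of both cortical and medullary epithelium and their ability to support thymocytes. Trp63 encodes p63, a p53 family member required for the progenitor capacity of stratified and thymic epithelia. It has an upstream start for TAp63, with a full transactivation domain, and an internal start for ΔNp63, the form that prevails in basal epithelial cells.

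The sequences chosen from these loci show what the accessible DNA looked like at a start and away from one, and are given 5′ to 3′ in the direction of transcription of the gene (mm10, strand in brackets), outside annotated exons except for a short site in Six4. Matches to the motifs described further on are in capitals: the E-box CACCTG, AP-1 TGANTCA, the CCAAT box, the GC box GGGCGG, the core GACGC that Foxn1 is known to recognise, KLF GGGTGTGG and MEF3 TCAGGTTTC, an element bound by Six4, each on either strand. The upstream end of the Foxn1 promoter region, which leaves out the bases nearest the start because RefSeq places an exon there, and the wider region in Foxn1 intron 1 are shown first.
Foxn1 chr11:78386784-78386958 (-): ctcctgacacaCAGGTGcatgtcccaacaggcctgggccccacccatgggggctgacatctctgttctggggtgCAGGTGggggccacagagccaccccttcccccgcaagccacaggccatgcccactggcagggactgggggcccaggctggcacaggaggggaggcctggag
Foxn1 chr11:78382772-78383040 (-): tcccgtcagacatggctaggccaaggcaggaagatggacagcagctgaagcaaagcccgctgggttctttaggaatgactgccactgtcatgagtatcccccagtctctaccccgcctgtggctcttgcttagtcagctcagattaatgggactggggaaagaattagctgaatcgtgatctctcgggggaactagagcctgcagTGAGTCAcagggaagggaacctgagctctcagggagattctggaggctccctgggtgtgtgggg
An intronic region of Trp63 with 2 AP-1 matches and 300 of the 408 bases of its widest region follow.
Trp63 chr16:25777673-25777782 (+): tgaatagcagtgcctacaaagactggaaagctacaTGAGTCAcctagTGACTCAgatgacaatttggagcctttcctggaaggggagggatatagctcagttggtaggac
Trp63 chr16:25849862-25850161 (+): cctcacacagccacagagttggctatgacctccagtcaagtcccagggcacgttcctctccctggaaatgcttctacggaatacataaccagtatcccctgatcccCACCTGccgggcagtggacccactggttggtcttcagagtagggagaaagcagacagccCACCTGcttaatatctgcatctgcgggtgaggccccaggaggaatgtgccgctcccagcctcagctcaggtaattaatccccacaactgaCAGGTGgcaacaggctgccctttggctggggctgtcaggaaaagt
The DNA just before the Pax1 start is shown for its neighbouring CCAAT boxes, and 300 bases of the widest region upstream of Pax9 for its width at no promoter.
Pax1 chr2:147364805-147364993 (+): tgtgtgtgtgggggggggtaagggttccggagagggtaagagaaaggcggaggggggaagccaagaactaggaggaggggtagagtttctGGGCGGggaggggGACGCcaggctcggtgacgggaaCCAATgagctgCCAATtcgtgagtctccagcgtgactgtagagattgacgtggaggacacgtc
Pax9 chr12:56681473-56681772 (+): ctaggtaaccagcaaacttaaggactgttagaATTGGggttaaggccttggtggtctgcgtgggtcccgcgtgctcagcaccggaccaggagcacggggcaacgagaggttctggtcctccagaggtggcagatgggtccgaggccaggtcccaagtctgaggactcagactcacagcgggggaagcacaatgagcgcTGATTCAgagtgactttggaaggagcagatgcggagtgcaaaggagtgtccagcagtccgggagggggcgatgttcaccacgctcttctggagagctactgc
For Six4, the site with the MEF3 match past its start and the intron 1 region with AP-1 and KLF matches are shown.
Six4 chr12:73113326-73113354 (-): tggcctggggGAAACCTGAtcggccagat
Six4 chr12:73110450-73110662 (-): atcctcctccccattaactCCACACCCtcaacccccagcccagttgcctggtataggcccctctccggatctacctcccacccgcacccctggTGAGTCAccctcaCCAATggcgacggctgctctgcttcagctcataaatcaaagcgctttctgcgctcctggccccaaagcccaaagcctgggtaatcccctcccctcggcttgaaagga
In these stretches the E-box occurred 2 times upstream of Foxn1 and 3 times in the Trp63 region, and the AP-1 matches of Trp63 lay within a region of only 110 bases.

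A promoter region was one whose centre lay between 1000 bases upstream and 100 bases downstream of a start of a basic GENCODE transcript. All 7 genes had one, against 48.6% of protein-coding genes. Of 31 paralogs of the same families, 14 (45.2%) had one. The widest such region was 750 bases at Eya1, 579 at Pax9, 451 at Pax1, 416 at Foxn1, 341 at Six4, 240 at Tbx1 and 169 at Trp63. Among the 10669 protein-coding genes with a promoter region the median was 555 bases, with quartiles of 378 and 761. Thus Eya1 and Pax9 stood above that median, and Six4, Tbx1 and Trp63 below the lower quartile, with 6.65% of genes narrower than Trp63.

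Not every annotated start lay in accessible chromatin. Of the 15 starts of basic transcripts of the 7 genes, 11 lay inside an accessible region. The same share over all protein-coding genes was not computed, so this count cannot be called high or low. Both upstream starts of Trp63, which give TAp63 transcripts, lay in no region, and the nearest region centre was 39.5 kb away. The internal ΔNp63 start, 118 kb further along the gene, lay inside the region chr16:25801782-25801950. Pax9, a paired-box factor needed for pouch outgrowth, had no region at its upstream start, the nearest centre being 1.86 kb away, and its downstream start lay inside the region chr12:56695419-56695997. Tbx1, a T-box factor of the pharyngeal apparatus, showed the converse, with its upstream start inside a region and its downstream start 3.61 kb from the nearest centre. All starts of Foxn1, Pax1, Six4 and Eya1 lay inside regions. Eya1, a transcriptional co-activator and phosphatase that partners Six4, had 2 promoter regions, one of 636 bases at the first start and one of 750 bases at a start further into the gene.

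**Figure D1:**
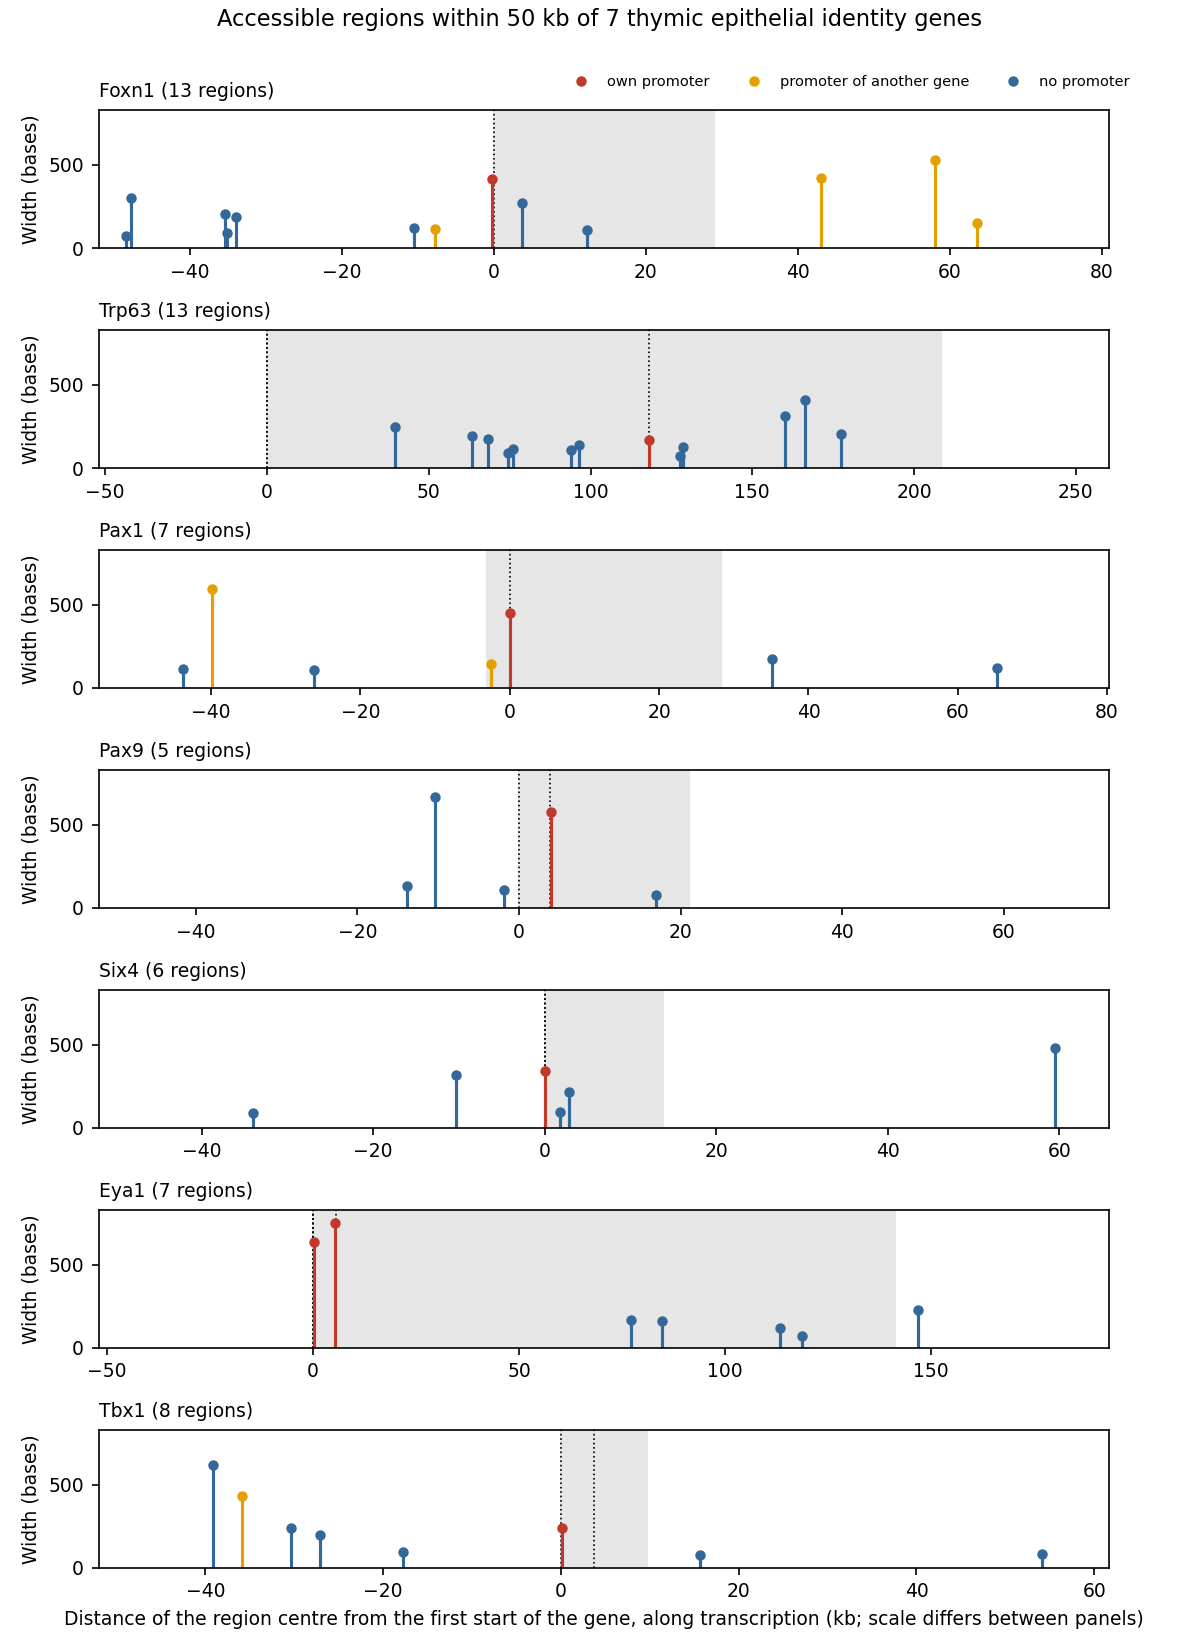
Width in bases of each region (y axis) against the distance of its centre from the first start of the gene in kb along transcription (x axis, scale differing between panels) for the 7 genes; grey marks the gene body, dotted lines the annotated starts, red a promoter region of the gene itself, orange a promoter of another gene and blue neither. In Trp63 all 13 regions lie in the gene body and none at the first start, whereas the 13 regions of Foxn1 spread over body and both flanks.

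The Foxn1 locus (chr11:78357577-78386558, minus strand, 29.0 kb) held 13 regions, 3 in the body, 7 upstream and 3 downstream. The promoter region chr11:78386543-78386958 contained the single start of basic GENCODE transcripts, and RefSeq places an exon upstream of that start within the region. In intron 1, a region of 269 bases lay 3.65 kb past the start and one of 106 bases lay 12.2 kb past it. Upstream, regions of 207, 92 and 184 bases lay together in the neighbouring Slc13a2 gene, between 33.9 and 35.4 kb before the start, and regions of 70 and 302 bases lay 48.4 and 47.8 kb before it. A region of 119 bases lay 10.5 kb before the start. Another 4 regions of the window were promoters of neighbours, namely the antisense transcript Slc13a2os, Unc119, Pigs and Aldoc. Foxn1 had 10.1 regions per 100 kb of window, more than 94.0% of protein-coding genes, and it was the densest of the 7 loci.

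The Trp63 locus (chr16:25683763-25892102, plus strand, 208 kb) also held 13 regions, and all were in the gene body. Between the upstream starts and the ΔNp63 start lay 7 of them, with widths from 93 to 247 bases, and 5 lay after the ΔNp63 start, with widths from 72 to 408 bases. Apart from the promoter region, 5 regions were in intron 1, 4 in intron 3 and 3 in intron 4. Of the 2037 protein-coding genes within a factor of 2 of its length, 92.0% had fewer regions in their body, and their median was 4. Per 100 kb of window Trp63 had 4.22 regions, near the median of 3.76 over all protein-coding genes, a density that includes the flanks, which held none. The widest region, chr16:25849809-25850216, lay 48.1 kb after the ΔNp63 start and held the 3 E-boxes shown above. No region lay in either flank of Trp63, and the nearest outside the window were 59.1 kb before and 66.2 kb after the gene.

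Pax1 and Pax9 encode paired-box factors of the pouch endoderm. The Pax1 window (gene chr2:147361925-147393295, plus strand, 31.4 kb) held 7 regions, of which the promoter region chr2:147364805-147365255 contained the start. A second region in its body, 147 bases wide and 2.48 kb before the start, was the promoter of the antisense transcript AI646519, and a region of 593 bases 39.9 kb before the start was that of Gm14110. The remaining 4 regions of the window measured 108 to 177 bases. The Pax9 window (gene chr12:56691767-56712822, plus strand, 21.1 kb) held 5 regions, the fewest of the 7, and none lay downstream. Narrow regions of 132 and 107 bases lay 13.9 and 1.86 kb before the first start, and one of 80 bases lay 17.0 kb past it. Its widest region, chr12:56681107-56681772, was at no annotated promoter and lay 10.3 kb before the first start. At 666 bases with 37 CpG dinucleotides it was above the upper quartile of all regions outside promoters, 308 bases, and wider than the Pax9 promoter region itself.

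Six4, a homeodomain factor that acts with Eya proteins, had 6 regions (gene chr12:73099609-73113456, minus strand, 13.8 kb). Both starts lay inside the promoter region chr12:73113270-73113610, and regions of 98 and 213 bases followed in intron 1, 1.74 and 2.90 kb past the first start. Of the 7981 genes of like length, 91.6% had fewer regions in the body than the 3 of Six4. A region of 319 bases 10.4 kb upstream covered the start of Mnat1, with its centre 129 bases past that start and so just outside the promoter limit. A region of 90 bases lay 34.0 kb upstream, and the region farthest downstream was 481 bases wide.

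The Eya1 locus (chr1:14168954-14310235, minus strand, 141 kb) held 7 regions, and besides its 2 promoter regions there were 4 narrow ones of 73 to 169 bases in its introns, 77.3 to 119 kb past the first start. A region of 226 bases lay past the gene end. No region lay between the second promoter region and 77.3 kb, the largest gap at any of the 7 loci at 71.5 kb, and with 2.90 regions per 100 kb Eya1 was the only one of the 7 below the median of all protein-coding genes. The Tbx1 window (gene chr16:18580979-18590671, minus strand, 9.69 kb) held 8 regions, of which only the promoter region chr16:18590458-18590697 was in the gene. The 5 upstream regions included the promoter shared by Sept5 and Gm49601 (429 bases) and the widest region of the window, 620 bases in a Sept5 exon with a GC content of 74.8%, which covers Sept5 starts of the comprehensive annotation only. The other 3 upstream measured 242, 197 and 98 bases. Downstream of Tbx1 lay regions of 75 and 85 bases. With neighbours so close, regions of the Foxn1 and Tbx1 windows outside these genes' own promoters cannot be assigned to either gene rather than to adjacent genes. The same holds for the upstream regions of Six4, which lie in Mnat1, and for the Pax1 regions at the starts of AI646519 and Gm14110. It also holds for the region farthest downstream of Six4, which covers a start of a neighbouring gene in the comprehensive annotation.

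**Figure D2:**
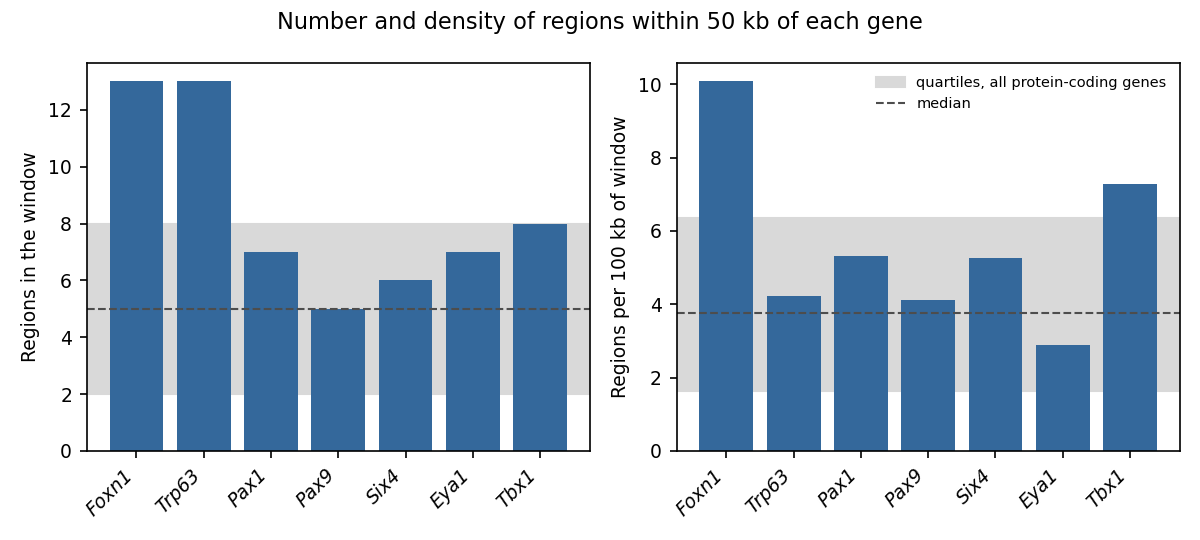
Number of regions in the window of each gene (left, bars) and the number per 100 kb of window (right, bars); grey bands are the quartiles and dashed lines the medians over 21938 protein-coding genes. Foxn1 and Trp63 both have 13 regions, but per 100 kb Foxn1 reaches 10.1 and Trp63 4.22.

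Over all protein-coding genes the median was 5 regions per window (quartiles 2 and 8), and over the 7 genes it was 7. Foxn1 and Trp63 exceeded the upper quartile, Tbx1 equalled it and Pax9 equalled the median. Per 100 kb the median of the 7 genes was 5.27, and Foxn1 and Tbx1 (7.29) were above the upper quartile of 6.36. The edge of the windows fell between regions: the farthest inside lay 48.4 kb from its gene, at Foxn1, and the nearest outside lay 52.6 kb away, at Six4.

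Of the 59 regions, 15 were at a promoter of any gene (25.4%, 95% Wilson interval 16.1 to 37.8, which covers counting error only), compared with 21.9% of all regions. Another 28 (47.5%) lay in introns, 12 (20.3%) between genes and 4 (6.78%) in exons, against 40.2%, 29.6% and 8.36% of all regions. Thus the promoter share was near the background. Of the 8 promoter regions of the genes themselves, 3 reached into coding sequence. The median width was 173 bases, against 212 for all regions. Its 95% interval from order statistics was 126 to 226, which treats the 59 regions as independent although they cluster at few genes. No difference was tested. Outside promoters the median was 134 bases, against 176 for all regions outside promoters. Of the 13 regions at least 400 bases wide, 9 were at promoters. Promoter regions were also the wider ones over the whole series, with a median of 482 bases against 176 outside promoters.

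**Figure D3:**
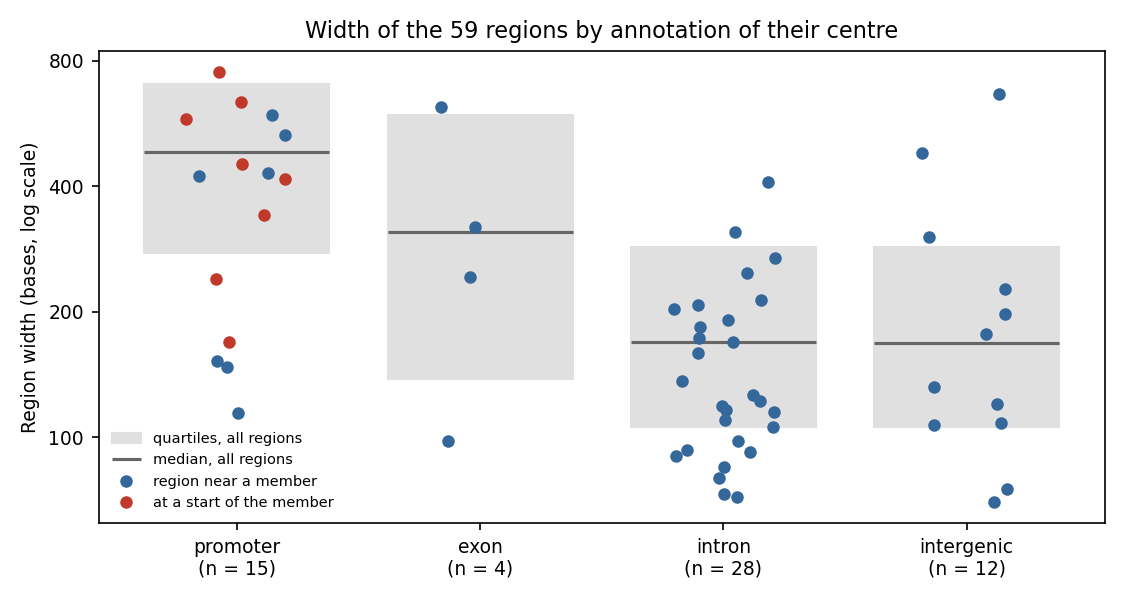
Width in bases (y axis, log scale) of each of the 59 regions by the annotation of its centre (x axis), with the promoter regions of the 7 genes in red and the other regions in blue; grey boxes and lines are the quartiles and the median of all regions of that class. Of the 28 intronic regions 21 are narrower than 200 bases, against 58.3% of all intronic regions, a difference that was not tested. The 28 include regions in introns of neighbouring genes. The promoter regions of Tbx1 (240 bases) and Trp63 (169 bases) lie below the lower quartile of all promoter regions, 277 bases.

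The base composition divided the promoters. CpG islands, stretches in which CpG dinucleotides are not depleted, mark the promoters of most broadly used and many developmental genes. The observed over expected CpG ratio was 0.873 at Tbx1, 0.872 at Pax1, 0.836 and 0.505 at the first and second Eya1 promoter, 0.668 at Pax9 and 0.622 at Six4. It was 0.237 at Foxn1 and 0.114 at Trp63, where the ΔNp63 promoter region held 1 CpG in 169 bases. The median over all 12501 promoter regions was 0.768, and 8.24% of them had a lower ratio than Foxn1 and 3.04% a lower ratio than Trp63. GC content was not low throughout, since it was 63.7% at Foxn1, near the median of 64.6% for promoter regions, but 48.5% at Trp63. The regions of Trp63 outside its promoter had ratios from 0.00 to 0.447. The CpG-poor promoters of Foxn1 and Trp63 thus had ratios within the range of the intronic regions of Trp63, unlike those of the other 5 genes.

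**Figure D4:**
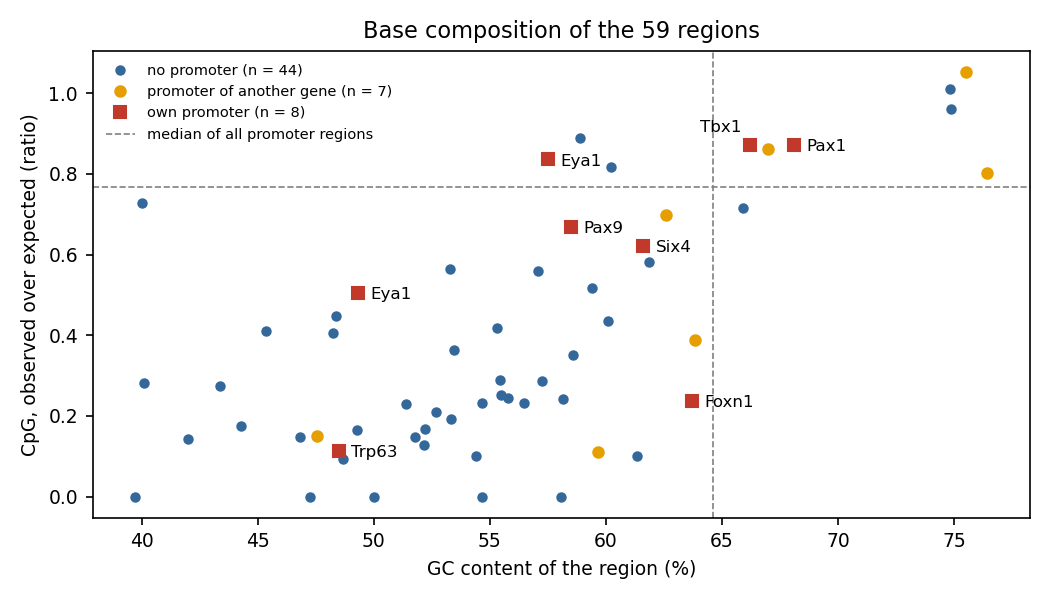
CpG observed over expected ratio (y axis) against GC content in percent (x axis) of the 59 regions; red squares are the 8 promoter regions of the 7 genes, orange points promoters of other genes, blue points regions at no promoter, and dashed lines the medians of all promoter regions. Foxn1 (0.237) and Trp63 (0.114) lie far below the median ratio of 0.768, and Tbx1, Pax1 and the first Eya1 promoter lie above it.

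Short motifs were searched on both strands of every region, and a match describes the letters and not the binding of a factor. AP-1 sites (TGANTCA), bound by Fos and Jun proteins, occurred in 12 of 59 regions (20.3%), against 21.3% of all regions. They were in the Foxn1 intron 1 region, in the regions 35.1 and 35.4 kb before Foxn1, in 2 intronic Trp63 regions, in the Six4 intron 1 region in both Eya1 promoter regions, in the Pax9 promoter region and in 3 flanking regions of Pax1, Pax9 and Six4. Of the 8 promoter regions of the 7 genes 3 thus held an AP-1 match, 2 of them at Eya1, against 10.6% of all promoter regions. Among regions within 10% of the width of each of these 3, 17.8% to 19.2% held at least 1. The Trp63 region of 110 bases held 2 AP-1 matches, and 15.7% of the regions within 10% of its width held at least 1. Forkhead motifs (TGTTTAC) occurred in 3 regions (5.08%, against 3.69%), 2 of which were in Trp63 after the ΔNp63 start. The Foxn1 core (GACGC) occurred in 16 (27.1%, against 25.9%) and in 4 of the 8 promoter regions of the 7 genes, against 60.5% of all promoter regions. Over the 59 regions the AP-1 and Foxn1 core shares were close to those of all regions.

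The MEF3 motif (TCAGGTTTC) occurred in 1 region (1.69%, against 0.881% of all), the Six4 promoter region, 85 bases past the nearest start (site shown above), and 1.54% of all regions of like width held it. The T-box motif (AGGTGTGA) also occurred in 1 region (1.69%, against 1.41%), a Trp63 region of 126 bases, and 0.774% of regions of like width held it. KLF motifs (GGGTGTGG) were in both Six4 intron 1 regions, 3.39% of the 59 against 4.40% of all. No region held the ETS motif CCGGAAGT, the GRHL motif AACCNGGTT or a pair of p53 family CATG cores 6 bases apart, found in 2.62%, 0.25% and 0.728% of all regions. The E-box (CACCTG) was in 15 regions (25.4%, against 27.7%) and in 4 of the 8 promoter regions, against 34.1% of all promoter regions. At Foxn1 the promoter region held 3 E-boxes, 2 of them in the stretch shown, and the ΔNp63 promoter region held 2.

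CCAAT boxes, bound by the NF-Y complex and usually found shortly before the start, were in 23 of 59 regions (39.0%, against 27.4% of all) and in 7 of the 8 promoter regions, against 42.6% of all promoter regions. The centre of a box lay 72 bases before the Foxn1 start, 75 and 109 before the ΔNp63 start, 50 and 61 before the Pax1 start, 89 before the Pax9 start, 40 and 71 before the 2 Six4 starts, and 76 before 1 of the 3 clustered starts of Eya1, but 5 and 40 bases after the others. The distance at Foxn1 is from the GENCODE start, and RefSeq places an exon upstream of it, so it need not hold for other Foxn1 transcripts. The Tbx1 promoter region held none. A box at most 150 bases before a start was thus present in 6 of the 7 genes, compared with 3128 of the 10669 protein-coding genes that have a promoter region (29.3%). The CCAAT box, GC box, Foxn1 core and E-box were added after the sequences had been seen, as was the limit of 150 bases, so these shares are descriptions without a test. GC boxes (GGGCGG) were in 6 of the 8 promoter regions, against 71.7% of all promoter regions.

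Genes of the same pathways were counted in the same way, the share over all protein-coding genes being 48.6%. Of 9 patterning genes of the third pouch, 4 (44.4%) had one, namely Gata3, Wnt4, Fgfr2 and Isl1, with widths of 118 bases at Gata3 and 730 at Fgfr2. Hoxa3, Gcm2, Fgf10, Bmp4 and Fgf8 had none. Their nearest region centres lay 744 bases from a start at Fgf10, 1.38 kb at Hoxa3, 3.09 kb at Bmp4, 6.57 kb at Fgf8 and 21.1 kb at Gcm2. Hoxa3 and Gcm2 specify pouch and parathyroid fate, and Fgf10, Bmp4 and Fgf8 are FGF and BMP ligands of the pouch program. Of 8 genes known to depend on Foxn1, 3 (37.5%) had one, the chemokine genes Cxcl12 (345 bases) and Ccl25 (784 bases) and the protease gene Prss16 (1285 bases). Of the others, the Notch ligand gene Dll4 had a region centre 129 bases from a start, Kitl 171, Cd83 415 and Tbata 542 bases, all outside the promoter limit, and for Psmb11, the proteasome subunit of cortical epithelium, the nearest centre was 7.26 kb away. All 7 epithelial genes known to depend on p63 had one, among them Krt5 (374 bases), Krt14 (308 bases) and Perp (753 bases).

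Markers of cell types were counted by the same measure, the share over all protein-coding genes being 48.6%. Of 10 mTEC markers 9 had a promoter region, including Aire (311 bases) and Epcam (263 bases), and Relb had its nearest centre 0.482 kb from the start. Of 5 markers of cortical epithelium 4 had one, and Prss16 and Cxcl12 were in this list and in that of Foxn1-dependent genes. The measure thus did not separate medullary from cortical epithelium, although the cells were gated against CDR1. None of 7 thymocyte markers, 4 fibroblast markers and 4 B cell and dendritic cell markers had one, nor did the endothelial markers apart from Kdr, 1 of 4. Regions were nonetheless centred 120 bases from a start of Flt3, 239 from Cd79a and 277 from Pdgfra, past the promoter limit.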

How the data were processed

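ATAC-seq of 8 mTEC samples in 4 groups was used in the form the authors deposited. Per the paper's methods the authors aligned reads to mm10 with Bowtie2, removed mitochondrial, multimapping, poorly aligned and duplicate reads, called broad peaks with MACS2 and merged them with bedtools. The sources used here do not give whether MACS2 ran on each sample or on a pool. Per the file headers, featureCounts 2.0.3 counted reads over the regions. The deposited values used were the start, end and width in bases of each region, which belong to the whole set. Merging and the broad setting affect width, and removal of multimapping reads affects repeats.

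The 8 count columns match no sample label and were used in no step, so no depth, CPM or comparison of groups is given and the planned tests were not run. Regions were compared with GENCODE M21 and the GRCm38 sequence of RefSeq, on which no region ran past a chromosome end. The promoter sequences of RefSeq held 5 of the 7 genes and not Eya1 and Trp63. The class of a region is that of its centre, in the order promoter, exon, intron, intergenic. Sequence was printed only outside exons, apart from a Six4 site. The members, lists and motifs were chosen with earlier results of these data known, and some listed genes are not reported here. By rule the 7 genes are named with the regions in their windows, given singly or as counts and ranges, and for each gene those at its starts and the widest at no promoter are singled out. Genes within a factor of 2 in length and regions within 10% in width served as like features. Overlap code was tested on simulated regions. Python 3, numpy and pandas were used.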

Additional observations from a re-analysis of the deposited data

How the results depend on the processing

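Over 26 alternatives for 5 results, 21 were labelled the same and 5 moved. A count was labelled the same within a factor of 1.5, and a share or median if inside the 95% interval of the value given. These limits are wide, so values labelled the same could still differ. The number of regions near the 7 genes fell from 59 to 30 without flanks, to 36 with flanks of 10 kb, and to 25 for those at least 200 bases wide, but was 42 with 25 kb, 82 with 100 kb and 58 with bodies of basic transcripts. The number of genes with a promoter region was 7 by any overlap, a wider limit, the comprehensive set or coding transcripts, and 6 with regions of at least 200 bases, which removes Trp63. It was 4 when every start had to lie inside a region. The share of regions at a promoter ranged from 20.3% to 37.3%, and the median width from 134 to 200 bases. The share with an AP-1 match was 19.0% to 23.3% over the flanks and 36.0% among regions of at least 200 bases. The share over all regions of at least 200 bases was not computed, and the reason for the higher value was not tested. The AP-1 alternatives and that of every start were chosen after seeing the data. Alternatives on count levels were not run. No paired analysis was possible because no result comes from a test and the columns of counts name neither samples nor replicates. A consensus region does not say in which samples the DNA was open, and a gene without a region may have been accessible below the peak caller's limit.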
